A study of Schizosaccharomyces pombe with 2 samples.

Results

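The right end of chromosome I of fission yeast (Schizosaccharomyces pombe) was examined as the 7 bins of 10 kb whose last bases run from 5510000 to 5570000 (9.13 to 79.1 kb from the assembled end), taken from a Hi-C map of 1218 bins with values. These bins hold the 8 genes hry1, sul2, yhb1, pfl9, gdt1, pdc102, ftm3 and ftm4, among 22 annotated protein-coding genes. The window and its division after base 5530000 were selected on measured values, the contacts of these bins with one another, with chromosome ends and centromeres and with the mating-type region in the same map. The contrasts below therefore describe 1 map and carry no test. The 4 bins from the division outward are called the outer bins, and the 3 before it the inner bins. Bins are named by their genes.

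The cells carried sap1-1, an allele of sap1, whose product is an essential DNA-binding protein. They were grown in rich medium at 26 °C, moved to 33 °C for 6 hours and fixed in 3% formaldehyde for 20 min. The labels list 2 samples in this 1 group, and no control strain was analysed here, so no value is an effect of the mutation. The values form 1 map whose header carries a tag for the first replicate; whether it pools both is not stated.

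In Hi-C, fixed chromatin is cut with HindIII and ligated, and sequenced junctions count how often pairs of loci lay close together. In fission yeast the telomeres of chromosomes I and II gather at the nuclear envelope, the centromeres cluster beside the spindle pole body, and the ends of III border the ribosomal DNA repeats. The mating-type region on II and the subtelomeres carry heterochromatin, a compacted and largely silent form of chromatin. Subtelomeres of S. pombe also hold repeated gene families, so reads from one end can match another.

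The deposited values are contact signal after iterative correction, which scales every bin to the same sum, from 57251.4 to 57251.5. Values have no absolute unit and are given as corrected contact or as a fold over a stated mean. Whole reads were recovered from the values: 37526864 in all, 7686 to 98119 per bin (median 58761.5), with a median of 11 per pair of bins on different chromosomes. Ranges in parentheses are 95% intervals from these reads. They cover counting error only, since there was no replicate, and leave out the unequal weight that the correction gives to reads. Arm bins lay at least 200 kb from an end and 100 kb from a centromere midpoint, and their pairs on different chromosomes averaged 12.5 (the inter-chromosomal mean).

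The genes run from the inner bins outward, with coordinates from the RefSeq annotation of ASM294v3. Its chromosome lengths equal those of the map, whose build the submitters' processing notes give as ASM294v2. The innermost bin holds hry1, for a protein with a cation-binding HHE domain (I, 5502575 to 5503291, plus strand), and sul2, for a sulfate transporter (5505599 to 5508782, plus strand). The next, ending at 5520000, holds yhb1, for a nitric oxide dioxygenase, an enzyme that removes nitric oxide (5517951 to 5519950, plus strand). The one ending at 5530000 holds pfl9, for a DIPSY family glycoprotein of the cell surface (5527692 to 5528959, plus strand). The 4 inner members all lie on the plus strand.

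Among the outer bins, the first, ending at 5540000, holds no member; it holds SPAC186.03, annotated as an L-asparaginase, and SPAC186.04C, and is called the SPAC186.03 bin. The bin ending at 5550000 holds gdt1, for a GDT1-like protein, a family of membrane transporters (5540032 to 5541481, minus strand). The bin ending at 5560000 holds pdc102, for a pyruvate decarboxylase, the enzyme that turns pyruvate into acetaldehyde in fermentation (5552811 to 5554529, plus strand). The outermost, called the ftm bin, holds ftm3 (5564211 to 5564651, minus strand) and ftm4 (5565881 to 5567240, minus strand), for proteins with transmembrane helices. Long terminal repeats, the remains of retrotransposons, lie at 5541543 to 5541852 and 5558866 to 5559091. Since a contact value belongs to a whole bin, genes of 1 bin share it.

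The division between inner and outer bins falls within SPAC186.02C, a hydroxyacid dehydrogenase gene (5529851 to 5530960). A single HindIII fragment of 2928 bp spans it, so ligation products of that fragment are assigned to either side by their position. The sites that bound it are shown because they set the resolution of the division. They are printed from the plus strand of the RefSeq assembly ASM294v3. Capitals mark the enzyme's recognition site. The left one lies within pfl9 (I, 5527828 to 5527863 printed) and the right one within SPAC186.02C (5530756 to 5530791 printed).
left site: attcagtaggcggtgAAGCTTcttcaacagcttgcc
right site: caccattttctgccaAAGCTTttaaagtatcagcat

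Each of the 7 bins held 3 to 7 HindIII sites, against a median of 5 in arm bins, and 40 in all. The longest fragment, 7510 bp, ran from 5541428 to 5548938 within the bin of gdt1. Outer and inner bins therefore overlapped in their number of cut sites.

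The outermost members are copies of genes at other ends. The coding sequence of ftm3 was identical to that of ftm2, at the left end of I, over all 441 bases. It differed at 1 base from ftm6 at the left end of II and at 1 base from ftm7 at the right end of II. The 1035 coding bases of ftm4 differed at 3 from ftm5, at the left end of II, and its first 953 aligned bases differed at 2 from ftm1. The stretches below are printed from RefSeq on the coding strand to show how little separates the copies. Coding bases 169 to 218 are given for ftm3 (I, 5564434 to 5564483, minus strand), ftm2 (I, 32398 to 32447, plus strand), ftm6 (II, 10737 to 10786, plus strand) and ftm7 (II, 4502179 to 4502228, minus strand). Bases 688 to 737 are given for ftm4 (I, 5566504 to 5566553, minus strand) and ftm5 (II, 8667 to 8716, plus strand). The capital marks a base at which copies differ.
ftm3: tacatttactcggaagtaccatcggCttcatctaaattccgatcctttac
ftm2: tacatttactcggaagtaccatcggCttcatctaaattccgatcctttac
ftm6: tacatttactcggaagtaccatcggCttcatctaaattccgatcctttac
ftm7: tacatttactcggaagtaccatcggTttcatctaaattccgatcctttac
ftm4: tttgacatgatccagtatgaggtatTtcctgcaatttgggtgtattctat
ftm5: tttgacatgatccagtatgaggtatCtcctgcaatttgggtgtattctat

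Of all 30-base words in the ftm bin, 94.4% occurred elsewhere in the genome, most often in bin 4500001 of II, which is blank in the map. The share was 10.2% in the bin of pdc102, 0.0903% in the bin of gdt1 and 8.12% in the SPAC186.03 bin, against 0% in all 3 inner bins. Within SPAC186.03 it was 66.1%. The bins' reads ran the other way. The outer bins held 47817, 39322, 39278 and 9673 reads from the SPAC186.03 bin outward, against 57603, 50925 and 55808 in the inner bins of hry1 with sul2, yhb1 and pfl9. The ftm bin thus combined the fewest reads with nearly complete sequence sharing. How reads with several matches were placed is not given in the sources used here, so the results that turn on this bin are also given without it.

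Neighbouring bins met more often on the outer side. The bin pairs joining the SPAC186.03 bin to gdt1's, gdt1's to pdc102's and pdc102's to the ftm bin had corrected contacts of 7568 (7378 to 7762), 8776 (8563 to 8993) and 10820 (10338 to 11318). Between the inner bins the values were 3554 (3442 to 3669) for the bin of hry1 and sul2 with that of yhb1, and 3955 (3836 to 4077) for that of yhb1 with that of pfl9. Outer and inner pairs did not overlap, and the outer mean was 2.41 times the inner mean. On recovered reads without the correction the ratio was 1.195, and 1.56 when the ftm bin, with its few reads, was left out too. In folds over the mean of neighbouring arm bins, 4981, the outer pairs stood at 1.52, 1.76 and 2.17 and the inner pairs at 0.713 and 0.794.

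At 1.5 times the arm mean or more stood 3 of 3 outer pairs and 0 of 2 inner pairs, beside 1.67% of all neighbouring pairs of the map. As these values chose the window, the counts only describe it. The pair that straddles the division, pfl9's bin with the SPAC186.03 bin, had 3926 (3807 to 4048), or 0.788 times the arm mean, near the inner pairs. Just outside the window, the bin of hry1 and sul2 and the bin before it had 3062 (2953 to 3174).

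**Figure D1:**
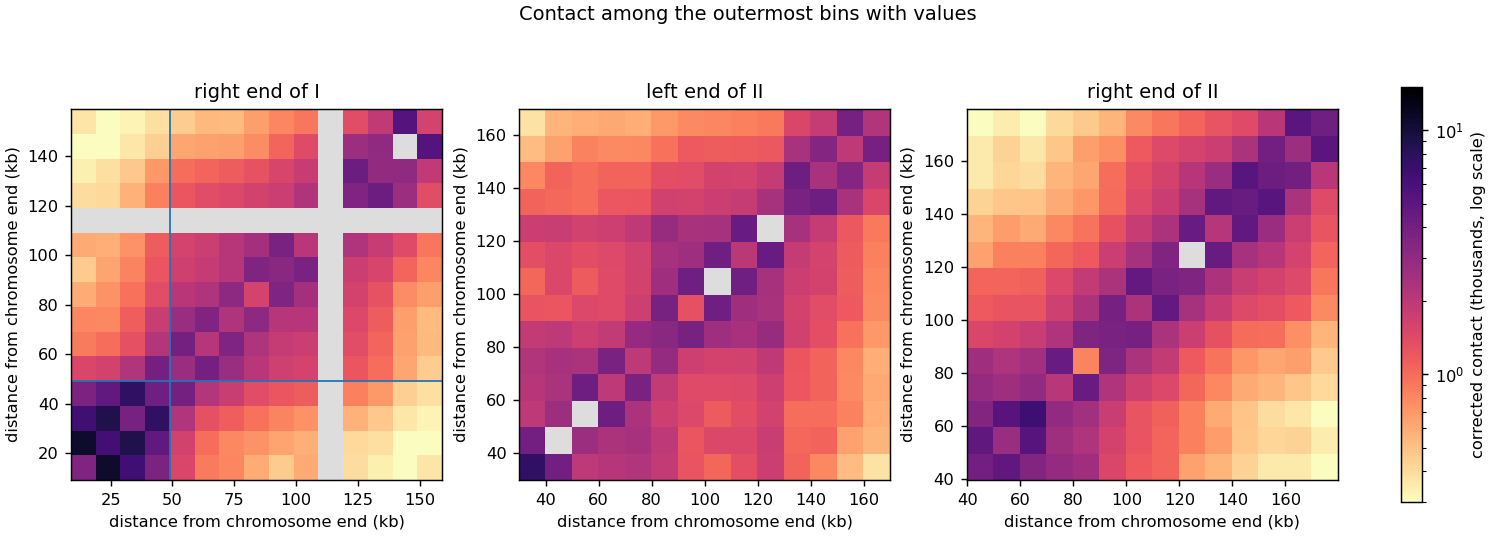
Corrected contact (log colour scale, in units of 1000) between 10 kb bins at the right end of I, the left end of II and the right end of II, with both axes in kb from the assembled chromosome end; grey marks bins that are blank and cells at 0. Darker colour is higher contact. Lines in the first panel separate outer from inner bins: the outer block is darker than the inner one, with neighbouring pairs from 7568 to 10820 against 3554 to 3955.

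The same held beyond direct neighbours. At a separation of 20 kb the outer pairs had 4747 (1.85 times the arm mean at that separation) for the SPAC186.03 bin with pdc102's and 6499 (2.53) for gdt1's bin with the ftm bin. The 1 inner pair at 20 kb, hry1 and sul2's bin with pfl9's, had 2775 (1.08). At 30 kb the outer pair, the SPAC186.03 bin with the ftm bin, had 3667 (2.03). No arm pair at the same separation was as high as 5 of the 6 outer pairs, and 0.285% of arm pairs reached the sixth, the SPAC186.03 bin with gdt1's. The highest folds, 2.17, 2.53 and 2.03, were all pairs of the ftm bin, on 1894, 1050 and 694 reads. Without that bin the outer pairs stood at 1.52, 1.76 and 1.85. Of these, the pairs at 1.76 and 1.85 were above every arm pair at their separation. Pairs across the division averaged 0.852 times the arm mean at 20 kb, 0.865 at 30 kb and 0.881 at 40 kb. The outer bins met one another above the arm level, whereas pairs that crossed the line or lay inside it ranged from 0.713 to 1.10.

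The mean neighbour fold was 1.82 for the outer bins, and for the outermost 4 bins with values it was 0.703 at the left end of I (2 pairs), 0.727 at the left end of II and 0.873 at the right end of II. The ends of III had 1.76 on the left and 2.03 on the right. High contact between neighbours was therefore not particular to the outer bins: they stood above the other ends of I and II and between the ends of III. The place between the ends of III rested on the pair of pdc102's bin with the ftm bin, at 2.17 on 1894 reads. The remaining outer pairs, at 1.52 and 1.76, still stood above the means of the other ends of I and II. The ends differ in what the map covers. The outer bins lie 9.13 to 49.1 kb from the assembled end. The outermost 4 bins with values start 30 kb in at the left end of II and 39.8 kb in at the right end of II, and at the left end of I 1 of them lies within 50 kb. Distance from the end and identity of the end cannot be told apart for most of this comparison.

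**Figure D2:**
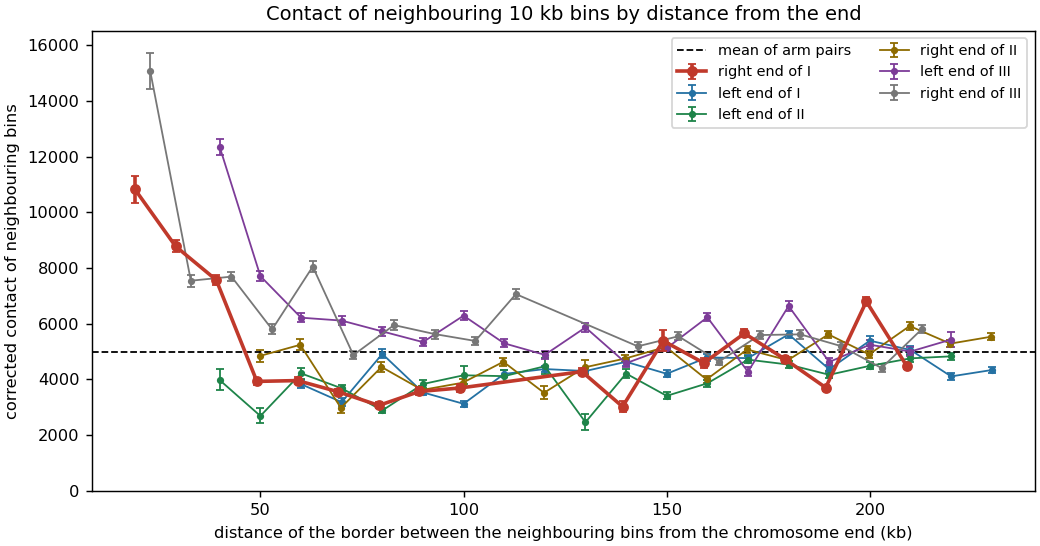
Corrected contact of neighbouring 10 kb bins against distance from the assembled chromosome end (kb), for the right end of I and the other 5 ends, with 95% counting intervals. The 3 outer pairs of the right end of I, from 7568 to 10820, lie above the pairs plotted for the other ends of I and II and among those of the ends of III.

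Because every bin has the same sum, a larger share within the outer block leaves a smaller share for all other contacts together. Whether this accounts for any single contrast was not tested. The bins of SPAC186.03, gdt1, pdc102 and ftm3 with ftm4 had 35.1%, 46.6%, 53.5% and 42.8% of their signal with the 4 outer bins, themselves included. The inner bins of hry1 with sul2, yhb1 and pfl9, which are not part of that block, had 7.87%, 9.32% and 16.1% with those same 4 bins. The share of the outermost 4 bins with themselves was 44.5% for the outer bins. It was 19.2% at the left end of I, 19.2% at the left end of II and 26.0% at the right end of II. At the ends of III it was 44.6% on the left and 48.4% on the right. Contact with other chromosomes took 19.3% of the signal of the outer bins on average, against 26.8% for the inner bins. For the outermost 4 bins of the ends of III it took 16.2% on the left and 14.6% on the right. Within a bin, contact was 3530 to 6292 in the outer bins and 2137 to 2744 in the inner bins. The median of arm bins, 3724, lay within the outer range and above the inner one.

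Contact with the other chromosome ends was lower in the outer bins. With the outermost 5 bins with values of both ends of II, the outer bins had 291 (277 to 305) at the SPAC186.03 bin, 216 (203 to 229) at gdt1's, 176 (166 to 187.9) at pdc102's and 334 (304 to 367) at the ftm bin. The inner bins had 464 (449 to 481) for hry1 and sul2, 506 (488 to 524) for yhb1 and 486 (470 to 503) for pfl9. All 4 outer bins lay under all 3 inner bins, with pdc102's the lowest. The means were 254 ± 71.4 in the outer bins (SD over 4 bins) and 485 ± 20.7 in the inner bins (SD over 3 bins), a ratio of 0.524 (0.505 to 0.543).

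Both sets met the ends of II far above the inter-chromosomal mean. At 10 times that mean or more stood 4 of 4 outer and 3 of 3 inner bins, beside 4.04% of all bins of I. The bin of yhb1 had the second highest value among the 544 bins of I and pdc102's the 20th. With the left end of II the means were 199 and 493 in outer and inner bins, and with the right end 310 and 478. With the left end of I, on the same chromosome, they were 406 and 620, a ratio of 0.655 (0.629 to 0.682). With the ends of III both sets were near the inter-chromosomal mean, at 10.9 and 12.7 on the left and 8.77 and 8.29 on the right.

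Of the 15 single bins in the end windows of the left end of I and both ends of II, 14 met the outer bins less than the inner ones, with ratios from 0.336 and a median of 0.474. The exception was bin 10001 of I, with 1049 in the outer and 889 in the inner bins, a ratio of 1.18. Of its 30-base words 65.2% occurred elsewhere. The ftm bin also stood apart from its neighbour, meeting bin 4490001 of II at 794, against 271 for pdc102's bin, and 75.4% of the 30-base words of bin 4490001 occurred elsewhere. Without the ftm bin the outer to inner ratio for both ends of II was 0.469, and on recovered reads without the correction it was 0.328 with that bin. Other settings made the contrast smaller. The ratio was 0.719 after division by each bin's sum over other chromosomes, 0.576 with narrow windows and 0.554 with the division moved outward.

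At the other ends of I and II the ratio of outermost to next bins was above 1. Their outermost 4 bins with values met ends of other chromosomes more than their next 3 bins did: 474 against 353 at the left end of I with both ends of II (ratio 1.34), 372 against 294 at the left end of II with the left end of I (1.26) and 597 against 380 at the right end of II with the left end of I (1.57). These bins lie mostly farther from the end than the outer bins. Inward of its peak the right end of I ran the same way, with 464 to 506 in the inner bins, against 374, 291 and 294 in the 3 bins centred 84.1 to 104 kb from the end. The profile with the ends of the other chromosome peaked in the outermost bin with values at the left end of I and the right end of II. At the left end of II the outermost bin was at 0.994 of the peak. At the right end of I it peaked in yhb1's bin, centred 64.1 kb from the end, and the outermost bin was at 0.661 of that peak. The inner bins were close in level to the outermost 4 bins of the left end of I, at 485 (476 to 495) and 474 (464 to 484) with the ends of II. The 1 bin of the left end of I at a distance like that of the outer bins, bin 10001, had 551 (520 to 584), above all 4 outer bins. As 60.6% of its 30-base words also occur at the right end of I, this comparison is not free of shared sequence.

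**Figure D3:**
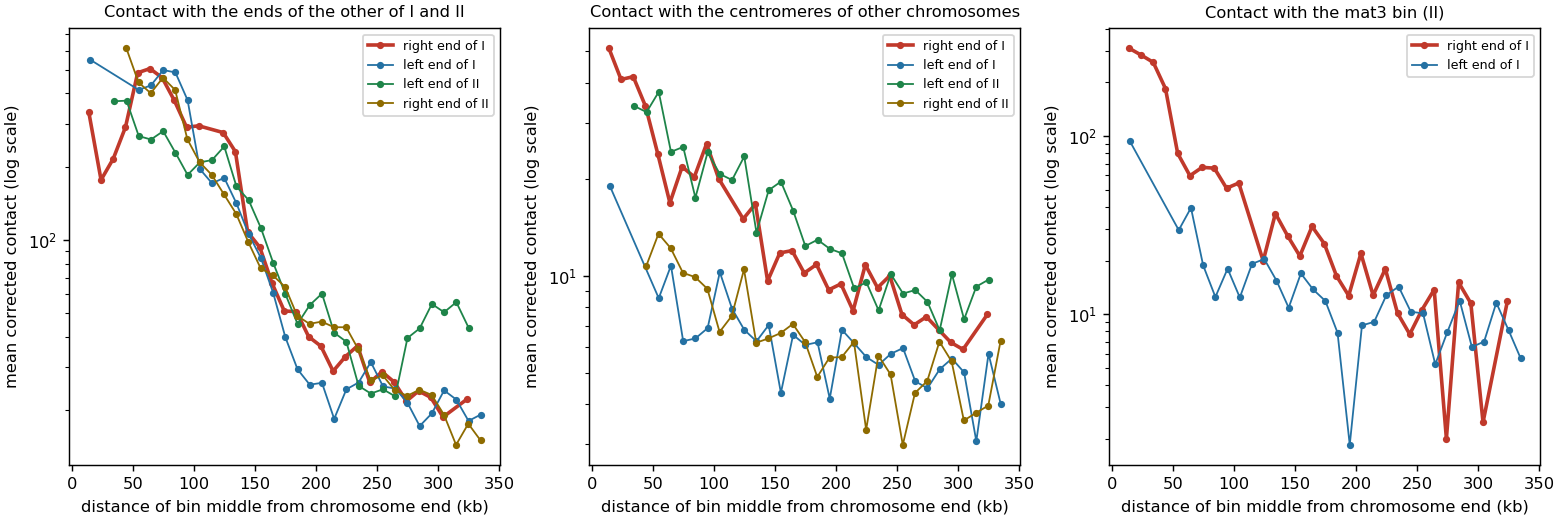
Mean corrected contact (log scale) of bins at the ends of I and II with the end windows of the other chromosome, with centromeres of other chromosomes and with the mat3 bin of II (last panel, ends of I only), against distance from the assembled end (kb). Intervals are not drawn. At the right end of I, contact with the ends of II is lower in the 4 bins nearest the end (176 to 334) than in the next 3 (464 to 506), while contact with centromeres and with the mat3 bin is higher.

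Contact with centromeres was higher in the outer bins. With the bins within 50 kb of the midpoints of centromeres II and III, the outer bins had 33.8 (29.5 to 38.5) at the SPAC186.03 bin, 41.7 (36.4 to 47.6) at gdt1's, 40.9 (36.0 to 46.3) at pdc102's and 51.2 (39.7 to 65.1) at the ftm bin. The inner bins had 21.9 (18.9 to 25.2) for hry1 and sul2, 16.9 (14.3 to 19.8) for yhb1 and 24.1 (20.9 to 27.5) for pfl9. The sets did not overlap, and the means of 41.9 and 20.9 gave a ratio of 2.001 (1.79 to 2.24). At 2 times the inter-chromosomal mean or more stood 4 of 4 outer and 0 of 3 inner bins, beside 8.64% of all bins of I. On recovered reads without the correction the ratio was 1.02 (0.913 to 1.14), and 1.24 when the ftm bin was left out too. The only bin of these 2 centromeres within 20 kb of a midpoint, bin 1620001 of II, had a ratio of 3.21 (1.90 to 5.61) on 52 and 21 reads.

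By centromere, the outer and inner means were 60.7 and 25.3 for centromere III (ratio 2.40), 31.2 and 18.5 for centromere II (1.69) and 53.7 and 44.4 for centromere I, on the same chromosome (1.21). For centromere II, the SPAC186.03 bin had 20.4, within the inner range of 13.9 to 21.5, so the higher level began at gdt1's bin there. For centromere III it began at the SPAC186.03 bin, with 57.3 against 22.2 to 31.1 in the inner bins. Of 18 single centromere bins, 17 had an outer to inner ratio above 1. The highest were bin 1130001 of III, with 106 (79.4 to 138) in the outer and 19.3 (9.62 to 34.5) in the inner bins on 54 and 11 reads, and that bin 1620001 of II, with 80.5 (60.2 to 106) and 25.1 (15.5 to 38.4). The exception was bin 3810001 of I, at 43.9 and 64.7.

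**Figure D4:**
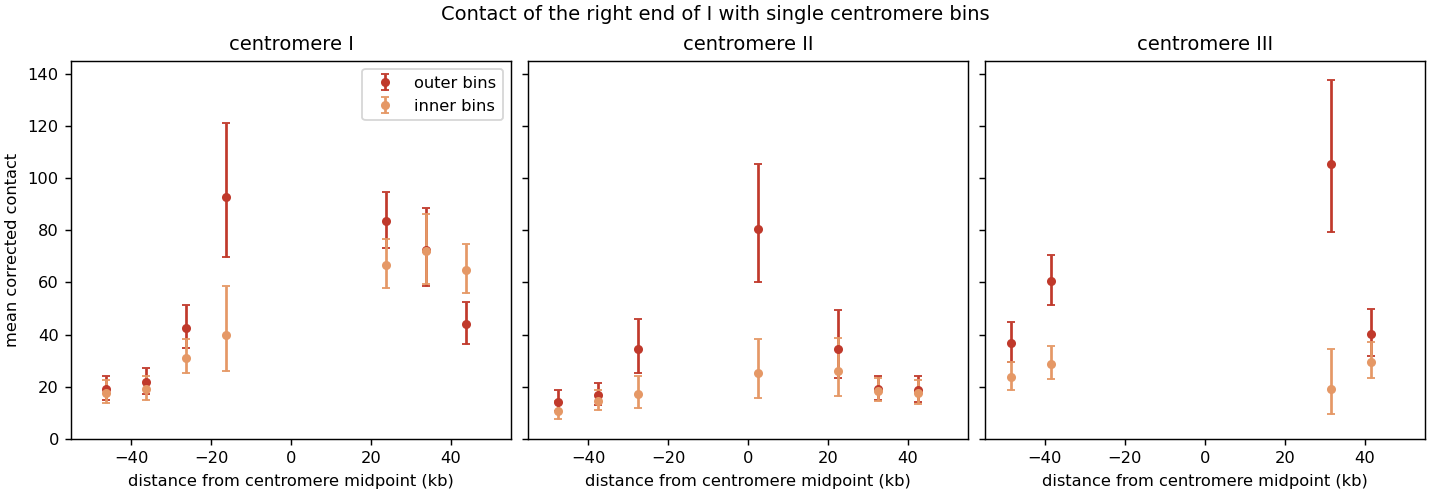
Mean corrected contact of the outer and inner bins of the right end of I with each 10 kb bin around the 3 centromeres, against distance from the midpoint (kb), with 95% counting intervals. The outer bins lie above the inner bins in 17 of 18 centromere bins, several with overlapping intervals, and most at bin 1130001 of III (106 against 19.3).

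At the other ends of I and II, contact with centromeres was also higher in the outermost bins than in the next ones, whereas at the ends of III it was lower (ratios of 0.830 and 0.759 for centromeres II and III). For centromeres II and III the outermost 4 bins over the next 3 stood at 1.42 (1.18 to 1.71) at the left end of I. The direction was shared, with a larger ratio at the right end of I for these centromeres together. With centromere I the right end of I had the lower ratio, 1.21, against 1.73 at the left end of I. The left and right ends of II had 1.35 and 1.33 with centromere I. With centromere II alone the right end of II had 1.74, against 1.69 at the right end of I. The level was 41.9 (39.0 to 45.0) in the outer bins and 11.2 (9.77 to 12.7) in the outermost 4 bins of the left end of I, a ratio of 3.76, or 5.77 after division by each bin's sum over other chromosomes. Of those 4 bins, the 1 at a distance like that of the outer bins, bin 10001, had 19.05 (14.05 to 25.3) on 48 reads. That was below the lowest outer value of 33.8. Bin 10001 shares sequence with the blank bin outward of the outer bins, as given above. The other 3 lie 50 to 80 kb from the end. The arms differ in length: the right arm of I is 1808 kb from the centromere midpoint to the end and the left arm 3771 kb. The left end of II, with an arm of 1622 kb, had 32.9 with centromere I and 30.4 with centromere III, against 11.3 and 12.4 at the right end of II. Arm length was not varied separately from the identity of the end, so these cannot be told apart. The ends of III had 8.97 on the left and 6.19 on the right with centromeres II and III, of which III is their own.

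Among the targets set for the comparison, the windows and this single bin, the highest outer to inner ratio was with the mat3 bin of II (ending at 2140000), which holds the mat3-Mc and mat3-Mi genes of the silent mating-type region. The outer bins had 184 (154 to 219) at the SPAC186.03 bin, 259 (219.8 to 302) at gdt1's, 284 (245 to 328) at pdc102's and 311 (227 to 416) at the ftm bin. The inner bins had 66.6 (50.1 to 87.0) for hry1 and sul2, 59.8 (43.3 to 80.6) for yhb1 and 79.8 (61.5 to 102) for pfl9. The outer bins held the 4 highest values of the 544 bins of I, and no interval of theirs met one of the inner bins. The means of 260 and 68.8, on 520 and 161 reads, gave a ratio of 3.78 (3.16 to 4.53). Among single bins, III 1130001 had a higher ratio, 5.48, on 54 and 11 reads.

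At 5 times the inter-chromosomal mean or more stood 4 of 4 outer and 2 of 3 inner bins, beside 1.93% of the bins of I and III. Just inward of the window, bin 5490001 had 66.0, like the inner bins. Without the correction the outer to inner ratio was 2.42. After division by each bin's sum over other chromosomes it was 5.28.

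Around the mat3 bin, contact of the outer bins fell away on both sides. It was 94.3 at 2110001, 124 at 2120001, 260 at the mat3 bin itself, 100.1 at 2140001 and 83.4 at 2150001. The inner bins had 44.3, 50.3, 68.8, 33.7 and 36.6 at the same places. Both sets thus peaked at the mat3 bin, the outer bins with the steeper peak. Their ratio was 2.47 in the bin before, 3.78 in the mat3 bin and 2.97 in the bin after. Farther out the sides differed: at 60 kb it was 2.21 to the left and 0.932 to the right, and at 100 kb 2.498 to the left (on 29 and 15 reads) and 0.556 to the right (on 46 and 84 reads). A ratio above 1 was therefore not confined to the mat3 bin.

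**Figure D5:**
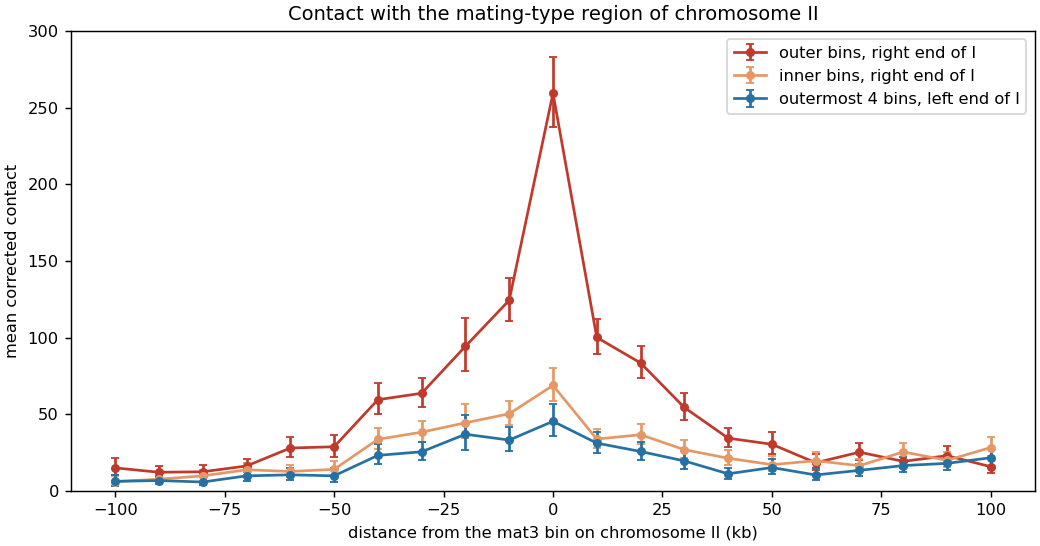
Mean corrected contact of the outer bins, the inner bins and the outermost 4 bins of the left end of I with bins of II within 100 kb of the mat3 bin, with 95% counting intervals. All 3 profiles are highest at the mat3 bin, at 260, 68.8 and 45.3. For the inner bins, narrowly, and for the left end of I, the interval there overlaps that of a nearby bin. At the left end of I, 2110001 had 36.9 (26.8 to 49.5), against 35.9 to 56.5 at the mat3 bin.

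The outermost 4 bins of the left end of I had 45.3 (35.9 to 56.5) with the mat3 bin, and the outer bins were at 5.73 times that, or 8.90 times after division by each bin's sum over other chromosomes. The left end of I fell inward too: the outermost 4 bins over the next 3 stood at 3.17 (2.09 to 4.89), an interval that overlaps that of the right end of I. The same ratio was 1.22 (0.882 to 1.69) at the left end of II and 1.69 (1.20 to 2.39) at the right end, on the same chromosome as the mat3 bin. Bin 10001 of I, near the end like the outer bins but sharing sequence with the blank bin outward of them, had 93.3 (59.2 to 140) on 23 reads. That was below the lowest outer value of 184. At the ends of III the outermost 4 bins had 7.42 and 7.93, under the inter-chromosomal mean.

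Outside the end and centromere windows, the 10 bins of II and III that met the outer bins most, relative to their own mean with arm bins of I, were named by a fixed rule. The mat3 bin led, at 27.3 times that mean in the outer and 7.23 times in the inner bins. Other bins on the inward side of chromosome II's ends followed. They were bin 4440001, with the phosphate transporter gene pho84 and the acid phosphatase gene pho1 (18.2 and 17.5), and bin 80001 (12.5 and 38.9). Next came 110001, with aat1 and pfl7 (10.6 and 29.7), 4410001, with the retrotransposon Tf2-11 (6.63 and 9.26), 140001, with thi7 (5.34 and 17.1), and 4370001, with fmd1 and arf6 (4.13 and 4.39). Here the inner bins were higher in 5 of 6, all but the bin of pho84 and pho1. The other 3 bins lay beside the mating-type region or centromere III. In them the outer bins were higher: 5.55 and 3.14 at 2090001 with edc3, 4.93 and 2.43 at 2160001 with pwp1 and prp16, and 4.16 and 2.66 at III 1150001 with the histone methyltransferase gene set9.

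Relatives of the members were compared as bins too. Of the 4 pyruvate decarboxylase genes, pdc101 lies near the left end of I, in the same bin as pfl8, and met the outer bins at 112 (101 to 124) and the inner bins at 210.0 (195 to 226). The bins of pdc201 and pdc202, inside the chromosome arms, had 8.74 and 8.43 with the outer and 2.98 and 13.1 with the inner bins, on 5 to 41 reads. The sul1 bin, inside II, had 4.11 and 3.44.

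Of the 8 pfl genes found, 7 lay in bins with values, pfl9 itself included. The bin of pfl5, near the right end of II, had 121 and 166, and that of pfl7, near the left end, 115 and 323. The bins of pfl2, pfl3 and pfl4, far from the ends, had 6.15 to 9.0 with the outer and 4.84 to 8.48 with the inner bins. Levels well above the inter-chromosomal mean were thus found for the relatives near an end, in both sets. The bins of pfl6, ftm1, ftm2, ftm5, ftm6 and ftm7 are blank, so contact between ftm3 or ftm4 and their copies was not measured.

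The bins of chromosome I most like the outer bins in their contacts across 674 bins of II and III were sought at least 200 kb from the right end, and the 5 found all lay at the left end. Pearson r of log2(contact + 1) was 0.743 for bin 60001 with dak2, 0.718 for 90001 with isp3 and hhy1, 0.688 for 10001, 0.665 for 120001 and 0.549 for 150001. The inner bins had a higher r with each of these, from 0.633 to 0.853. The outer and inner bins had an r of 0.860 with each other, above the r of the outer bins with any of the 5. That r is between sets of several bins, whereas the 5 are single bins, so the values are not directly comparable. These values describe 1 map, whose bins share reads, depth and the correction.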

How the data were processed

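Hi-C was measured in 1 group of 2 sap1-1 samples. The submitters' processing notes name Bowtie2 2.1.0 and the build ASM294v2. Per the file headers, the authors deposited iteratively corrected contact signal between bins of 10 kb, and 40 of 1258 bins are blank. Raw reads and other strains were not analysed here.

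Each value is a whole read number times a factor for each bin. Both were recovered, and 100% of values fell within 0.05 of a whole number. The recovered reads made 99.9% of the 37571192 in the header. Intervals are exact Poisson on reads, and Clopper-Pearson conditional for ratios, at 95%, and only counting error is covered. The recovery was tested on simulated data.

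End windows were the outermost 5 bins with values, and centromere windows the bins with values within 50 kb of the middle of the gene-free stretch. Genes, HindIII sites and sequences came from RefSeq's ASM294v3, whose 3 chromosome lengths equal those of the map. With 1 map and no control, no test was run.

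All 8 members are named, along with other genes of the window. Partner bins are named by at most 2 genes nearest their middle, for the 10 bins highest over their own mean and the 5 most similar bins (neighbours within 2 bins merged). Relatives came from lists of pyruvate decarboxylase, pfl, ftm and sulfate transporter symbols. The members, lists and rules were chosen with earlier results of these data known. Alternatives changed the correction, bins, division, summary, windows and balancing; 3 kinds were added after seeing the data. Scripts ran in Python 3.11.15 with pandas 2.3.3, NumPy 2.4.6 and SciPy 1.17.1, and figures were drawn by matplotlib 3.10.9.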

Additional observations from a re-analysis of the deposited data

How the results depend on the processing

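The 6 main ratios were recomputed under 47 combinations of result and setting. None changed direction, 17 moved by less than their interval and 30 by more. In the order neighbouring bins, ends of II, centromeres II and III, and the mat3 bin, the outer to inner ratios were 2.41, 0.524, 2.001 and 3.78 as reported. On recovered reads without the correction they were 1.195, 0.328, 1.02 and 2.42. Without the correction and without the ftm bin, a setting added after seeing the data, they were 1.56, 0.393, 1.24 and 2.95. The ratio of the outer bins to the left end of I for the mat3 bin, 5.73 as reported, was then 8.02. Without the ftm bin alone, neighbouring bins gave 2.18 and the ends of II 0.469. With the division moved outward to the bin of gdt1, neighbouring bins gave 2.57, the ends of II 0.554 and the mat3 bin 2.92. Medians gave 2.34, 0.494 and 1.39 for neighbouring bins, ends and centromeres, and 7.85 for the mat3 bin over the left end of I. Balancing without the diagonal gave 2.59 for neighbouring bins. Narrow windows gave 0.576 for the ends. The narrow centromere window held 1 bin, of centromere II, with 3.21 (1.90 to 5.61). Wide windows gave 1.57 for centromeres, and 2.88 for centromeres over the left end of I, 3.76 as reported. Further settings were added after seeing the data. Division by each bin's sum over other chromosomes gave 0.719 for the ends, 2.79 for centromeres and 5.28 for the mat3 bin, and 8.90 and 5.77 for the mat3 bin and centromeres over the left end of I. Leaving out the outermost bin of both ends of I gave 8.27 and 4.55 for the same pair. The cause of these shifts was not tested. The centromere ratio without the correction had an interval that held 1 (0.913 to 1.14). No paired analysis was possible because there is 1 group and 1 map, and no replicate could be left out. Depth limits single pairs of bins on different chromosomes, with a median of 11 reads, and the ftm bin, with 9673 reads, most.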
